A study of Mus musculus with 4 samples.

Results

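CTLA-4, CD28 and ICOS are costimulatory and inhibitory receptors of one family, and CD80 and CD86 are the B7 ligands that CTLA-4 and CD28 share. Their genes Ctla4, Cd28, Icos, Cd80 and Cd86 are 5 of the 32285 genes in the count tables and were found by their symbols, each on 1 row. They were followed through single cells of B16 melanoma, a transplantable mouse melanoma, from C57BL/6 mice whose Vsir gene encodes VISTA, an inhibitory B7-family receptor. The VISTA-KO mice were Vsir fl/fl CD4cre, so that Cre driven by the Cd4 promoter removed Vsir from T cells, whereas the WT mice were Vsir fl/fl littermates. Both genotypes were 6 to 8 weeks old and both were treated with a peptide vaccine on day 3 and with anti-CTLA-4 antibodies on days 4 and 8. Tumor-infiltrating lymphocytes (TILs) were taken on day 18 after treatment, and no library came from mice without the antibody. Tumors of 5 to 6 mice (6 to 8 tumors in a figure legend) were pooled per genotype, CD4+ and CD8+ cells were sorted, and each genotype gave 1 gene expression library and 1 T cell receptor library. With 1 library per genotype nothing could be tested, the spread between mice is unknown, and every interval below is an exact 95% interval that covers counting error only.

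T cells need a signal through CD28 beside that of the T cell receptor to divide and make cytokines, and CD28 receives it from CD80 or CD86 on antigen-presenting cells. CTLA-4, which is induced on activation and held constantly by regulatory T cells, binds the same ligands more tightly, and it can pull them off the cell that carries them. ICOS is induced on activated T cells, binds its own ligand ICOSL, and is known for its role in follicular helper and regulatory T cells. Antibodies against CTLA-4 free CD28 from this competition, and in mouse tumors they can also remove regulatory T cells.

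The receptor genes lie side by side on chromosome 1 of GRCm38 and the ligand genes on chromosome 16. Cd28 (ENSMUSG00000026012) spans chr1:60746388-60773359, Ctla4 (ENSMUSG00000026011) chr1:60909025-60915832 and Icos (ENSMUSG00000026009) chr1:60960773-61000322, with 135665 bases between Cd28 and Ctla4 and 44940 between Ctla4 and Icos. Cd86 (ENSMUSG00000022901) spans chr16:36568956-36666158 and Cd80 (ENSMUSG00000075122) chr16:38457430-38495958. The promoter of Ctla4 is shown as background, and whether any factor acts on it in these cells was not tested. NFAT, the factor that calcium signaling from the T cell receptor activates, is a known inducer of Ctla4. The 250 bases before the start of Ctla4 (chr1:60908775-60909024, plus strand, RefSeq on GRCm38.p6) read as follows, with capitals marking the core letters that NFAT binds.
Ctla4 promoter: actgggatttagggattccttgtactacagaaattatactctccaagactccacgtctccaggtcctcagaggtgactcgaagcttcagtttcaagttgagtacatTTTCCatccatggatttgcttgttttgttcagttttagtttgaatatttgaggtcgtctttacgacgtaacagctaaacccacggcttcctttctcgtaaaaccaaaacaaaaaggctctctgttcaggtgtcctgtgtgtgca
The letters GGAAA, searched on both strands, occur once, 144 bases before the start, and 55.6% of 27025 promoters of the same length hold them. TATAAA and TGANTCA had no match in this window, and 12.97% and 6.87% of the promoters hold them.

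The WT library held 10337 barcodes and 72098984 UMIs and the VISTA-KO library 10085 barcodes and 59916814 UMIs, and 10224 and 9946 cells passed the filters. Between the libraries 145 barcodes were shared. Cells were placed in 5 groups by UMIs of defining genes, and the groups are written WT first and VISTA-KO second throughout. CD8 cells (Cd8a or Cd8b1, no Cd4) numbered 5549 and 4350, conventional CD4 cells (Cd4, no Foxp3) 1768 and 3048, and regulatory cells (Foxp3 and Cd4) 1528 and 1270. Cells with at least 2 UMIs of Siglech, a receptor of plasmacytoid dendritic cells, numbered 221 and 138, and cells with at least 5 UMIs of the complement genes C1qa, C1qb and C1qc, which macrophages transcribe, numbered 124 and 74. T cell transcripts were present in all 3 T cell groups, with a summed T cell list of 5555 to 6301 CPM (UMIs per 1000000 UMIs of the group) and Ms4a1 of B cells at 0 UMIs in the CD8 cells. The CD4+ groups also held transcripts of other cells, with summed Cd8a and Cd8b1 at 897 and 457 CPM in conventional CD4 and 857 and 389 CPM in regulatory cells. The CD8 gate did not exclude Foxp3, which was at 37.1 and 19.7 CPM in CD8 cells against 485 and 610 CPM in regulatory cells. The part of regulatory cell RNA in the CD8 values below, among them those of Ctla4, was not tested.

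The other 2 groups were mixed. Of the Siglech cells, 48.4% and 47.1% also met the conventional CD4 gate and 30.3% and 35.5% the CD8 gate, and 17.6% and 18.8% held a productive alpha and beta receptor chain. Only 10 and 14 Siglech cells met no other gate, although 125 of 221 and 96 of 138 held no receptor chain or Cd3 UMI. The other gates thus also took in Siglech cells without these T cell features, and a shared gate does not by itself show T cell RNA. Siglech cells meeting the conventional CD4 gate (107 and 65) were 6.05% and 2.13% of that group. Of the C1q cells, 50.0% and 64.9% met the CD8 gate, and 35.5% and 60.8% held both chains. The regulatory gate took in 21.0% and 6.76% of the C1q cells and 16.7% and 7.25% of the Siglech cells. Their T cell list summed to 5619 and 4638 CPM beside a macrophage list of 3238 and 6689 CPM. These cells are therefore called by their gates, and values in them hold T cell RNA. The regulatory gate also took in cells with CD8 transcripts: 794 of 1528 WT cells (52.0%) and 375 of 1270 VISTA-KO cells (29.5%) held a UMI of Cd8a or Cd8b1. These cells were deep, with medians of 13941 and 9346 UMIs against 5233.5 and 5151 in the regulatory cells without CD8 transcripts. Melanoma transcripts summed to 10.5 and 200 CPM in CD8 cells, 209 and 15.9 in conventional CD4 cells and 5.63 and 194 in regulatory cells, and their part in the results below was not tested. Levels are UMIs of a gene in CPM of all UMIs summed over the cells of a group, and a higher level cannot be told apart from a larger part of the cells transcribing the gene.

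Ctla4 was highest in regulatory cells in both libraries, and its level in T cells was higher in VISTA-KO than in WT. WT regulatory cells had 781 CPM (768 to 794) and their VISTA-KO counterparts 1041 CPM (1020 to 1061), which gave a ratio of 1.33 (1.30 to 1.37). CD8 cells had 189 and 241 CPM, a ratio of 1.28 (1.23 to 1.32), and conventional CD4 cells 207 and 227 CPM, a ratio of 1.10 (1.04 to 1.16). The order of the groups in WT ran from regulatory cells over C1q cells (362 CPM), conventional CD4 cells and CD8 cells to Siglech cells (139 CPM), with no overlap of neighbouring intervals. In VISTA-KO the C1q interval (188 to 258 CPM) spanned the levels of CD8 and conventional CD4 cells, so that its place among them was not resolved. Regulatory cells were 14.3% and 12.6% of all cells, each cell counted once, and held 52.3% and 43.4% of all Ctla4 UMIs.

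Shares of cells told the same direction. After each cell was thinned to 2000 UMIs, a Ctla4 UMI was found in 69.3% and 75.1% of regulatory cells, whereas 93.3% and 92.4% held one before thinning at medians of 8838.5 and 5939 UMIs. In CD8 cells the thinned shares were 20.2% (19.2 to 21.3) and 26.8% (25.4 to 28.2), against 36.7% and 46.2% unthinned. In conventional CD4 cells they were 22.8% and 24.4%, with overlapping intervals. As a low reference, Siglech cells without a receptor chain and without a Cd3 UMI (125 and 96 cells, medians of 8309 and 8690 UMIs) held 3 and 1 Ctla4 UMIs, or 2.91 and 1.17 CPM, and a Ctla4 UMI in 2.40% and 1.04% of the unthinned cells. The lack of Cd3 UMIs selects against T cell RNA and so in part fixes these low values. Siglech cells chosen for the lack of a receptor chain alone (179 and 111) had 115 and 14.1 CPM of Ctla4. The levels in all 3 T cell groups were above both.

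Icos had the largest ratios of the receptors in CD4+ cells. It was at 402 CPM (393 to 411) in WT regulatory cells against 656 CPM (640 to 672) in those of VISTA-KO, which gave a ratio of 1.63 (1.58 to 1.69), and thinned shares were 55.6% and 66.8%. Conventional CD4 cells had 294 and 434 CPM, a ratio of 1.47 (1.41 to 1.54), and shares of 40.8% and 48.9%. In CD8 cells the levels lay closer, at 150 and 171 CPM with a ratio of 1.14 (1.10 to 1.19). Regulatory and conventional CD4 cells stood above CD8 cells in both genotypes, and in VISTA-KO the intervals of CD8 cells and C1q cells (163 CPM) overlapped. The Siglech cells without a chain or Cd3 UMI held 1 and 2 Icos UMIs, and those without a chain alone were at 55.8 and 31.0 CPM.

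Cd28 was most abundant in conventional CD4 cells. There WT had 265 CPM (256 to 275) against 353 CPM (344 to 363) for VISTA-KO, which gave a ratio of 1.33 (1.27 to 1.39), with thinned shares of 40.7% and 49.6%. CD8 cells had 187 and 232 CPM, a ratio of 1.24 (1.20 to 1.28), and regulatory cells 217 and 256 CPM, a ratio of 1.18 (1.13 to 1.246). In CD8 cells Ctla4 made up 50.3% (49.4 to 51.1) and 50.9% (50.1 to 51.8) of the UMIs of Ctla4 and Cd28 together. In 2 selections added after seeing the data, the share was 54.1% and 50.1% without the largest clonotype of each library and 46.7% and 51.3% in cells with both receptor chains, so that its direction depended on the cells taken. It was 43.8% and 39.1% in conventional CD4 cells and 78.3% and 80.2% in regulatory cells. These shares set UMIs of different genes against each other and are used to compare genotypes only.

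**Figure D1:**
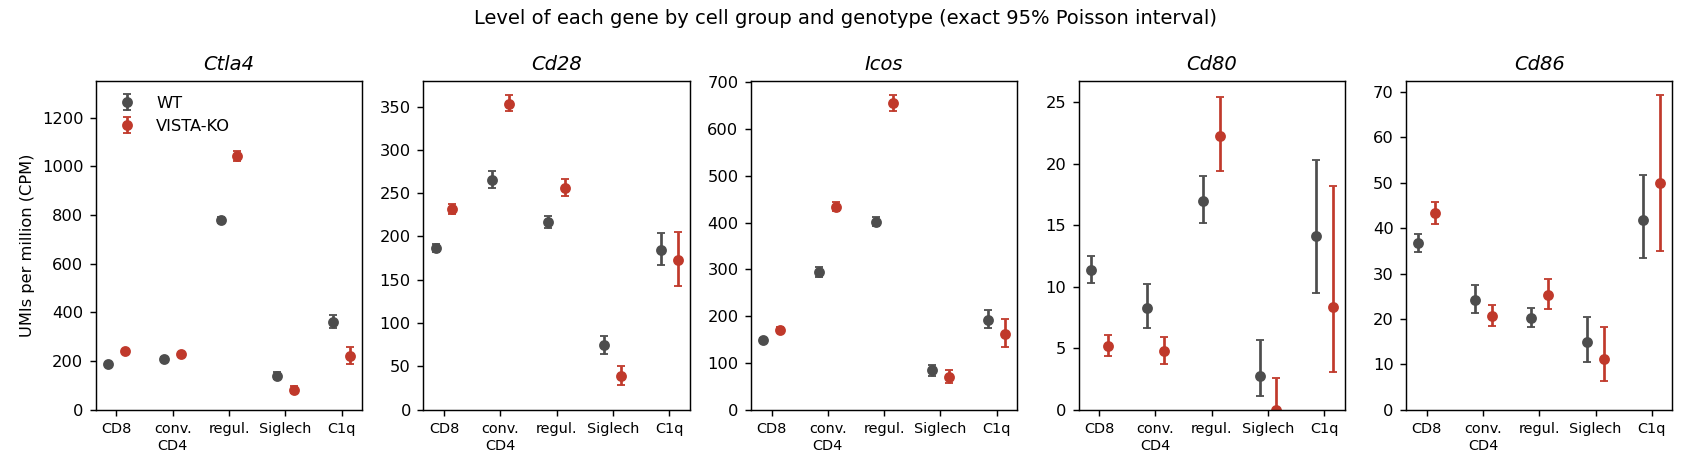
Level of each gene in CPM (y axis, from 0 and scaled per panel) in the 5 cell groups (x axis) of WT (grey) and VISTA-KO (red), with exact 95% Poisson intervals. Ctla4 and Icos peak in regulatory cells at 781 and 402 CPM in WT and 1041 and 656 CPM in VISTA-KO, and Cd80 is lower in VISTA-KO than in WT in CD8 cells but higher in regulatory cells.

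Against all genes, the receptors stood toward the upper end. The comparison took genes that reached 20 CPM in either library, and a gene was called when the higher value of CPM plus 5 exceeded the lower by over 25%. In CD8 cells 1 of the 4 members compared, Ctla4, was called higher (log2 ratio 0.34), where 2.58% of 6083 genes were called higher and 1.64% lower. This call held in 8 of 11 alternatives and ended without the largest clonotype of each library (0.16), where Cd28 (0.38) and Icos (0.37) were called instead, without that of WT alone (0.20), and without cells of 2 or more beta chains (0.31). Cd28 lay just under that size at 0.30, and only 2.24% and 2.71% of the genes had ratios above those of Ctla4 and Cd28. In conventional CD4 cells 2 of 4 members were called higher, Cd28 (0.41) and Icos (0.55), against 3.68% of 6336 genes higher and 5.63% lower (233 and 357 genes, or 364 and 244 with TMM scaling). In regulatory cells 2 of 5 members were called higher, Ctla4 (0.41) and Icos (0.70), against 6.45% of 6281 genes higher and 5.64% lower. The call for Icos held in all 11 alternatives, and that for Ctla4 in 6, ending in cells that met 1 gate only (0.089), with both receptor chains (0.16), with both of these (0.13), in clonotypes of 1 cell (0.15) and when thinned (0.26). In conventional CD4 cells the calls ended for Cd28 and Icos with 1 gate only (0.23 and 0.27) and in clonotypes of 1 cell (0.21 and 0.29), and for Cd28 with both chains (0.30). The selection of cells that met 1 gate only also left out cells with UMIs of both Cd4 and Cd8a or Cd8b1. Ratios above that of Icos were found for 1.18% of the genes in conventional CD4 cells and 1.37% in regulatory cells.

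**Figure D2:**
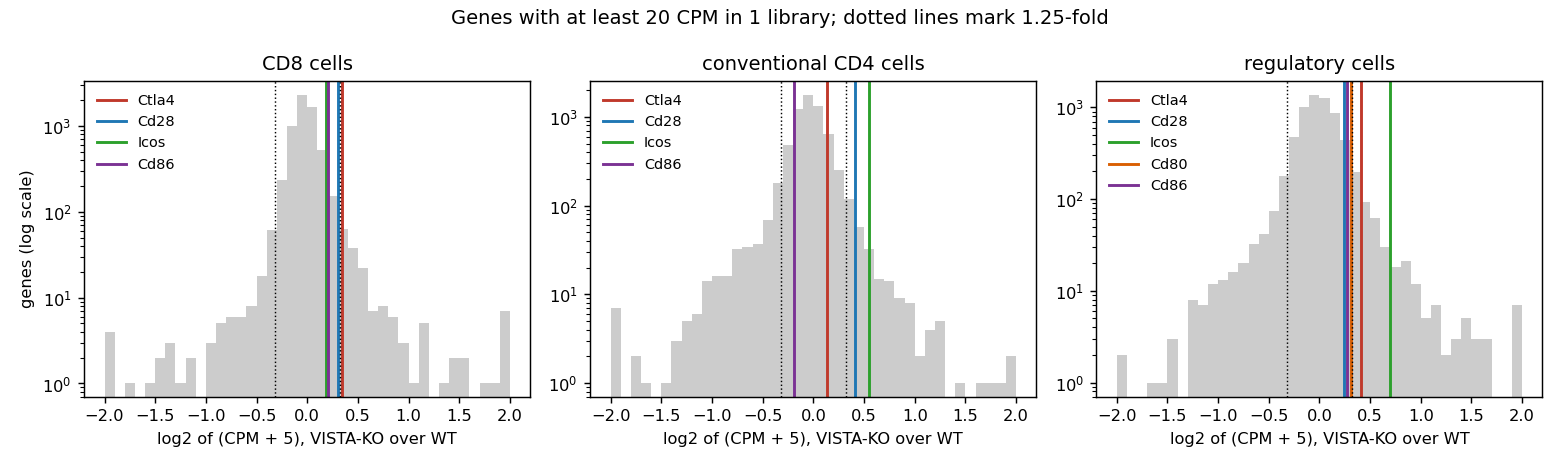
Numbers of genes (y axis, log scale) by log2 ratio of CPM plus 5, VISTA-KO over WT (x axis), in CD8, conventional CD4 and regulatory cells, with the members of at least 20 CPM as coloured lines and the 25% limits as dotted lines. Values beyond 2 in either direction were set into the outermost bars. Icos is the member farthest to the right in conventional CD4 and regulatory cells (0.55 and 0.70), and Ctla4 in CD8 cells (0.34).

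The receptor ratios depended on which cells entered. In regulatory cells without CD8 transcripts (734 and 895 cells), Ctla4 was at 1166 and 1237 CPM, a ratio of 1.06 (1.02 to 1.10), and Icos at 588 and 743 CPM, a ratio of 1.26 (1.21 to 1.32). Cd28 was at 237 and 247 CPM there, and its interval (0.963 to 1.13) held 1. In the cells that held CD8 transcripts, Ctla4 was at 631 and 774 CPM and Icos at 330 and 536 CPM, below the levels of the cells without them in both libraries. Regulatory cells with both receptor chains (771 and 921, or 50.5% and 72.5%) gave ratios of 1.12 (1.08 to 1.16) for Ctla4, 1.05 (0.976 to 1.13) for Cd28 and 1.36 (1.30 to 1.43) for Icos. Icos therefore stayed at least 1.21-fold higher at the lower bound in both selections, and most of the Ctla4 and Cd28 difference was absent from them.

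In conventional CD4 cells the cells that met 1 gate only gave Ctla4 ratios of 1.01 (0.938 to 1.08), Cd28 ratios of 1.18 (1.11 to 1.248) and Icos ratios of 1.21 (1.15 to 1.28). This selection also left out cells with UMIs of both Cd4 and Cd8a or Cd8b1. Summed Cd8a and Cd8b1 were at 897 and 457 CPM in the full group, and plasmacytoid dendritic transcripts at 2070 and 1091 CPM. The Ctla4 ratio was 1.09 (1.02 to 1.17) with both receptor chains. It was 1.10 (1.01 to 1.20) in cells with 1 beta chain, at least 1 alpha chain and none of the other markers. Its interval held 1 in the first of these 3 selections only. In CD8 cells with both receptor chains (4159 and 3459), the Ctla4 ratio was 1.47 (1.41 to 1.53), and in those without any chain (1055 and 471) it was 0.993 (0.920 to 1.07). The cells with both chains include the largest clonotype of each library, of 1034 and 291 cells, with Ctla4 at 61.8 and 334 CPM.

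**Figure D3:**
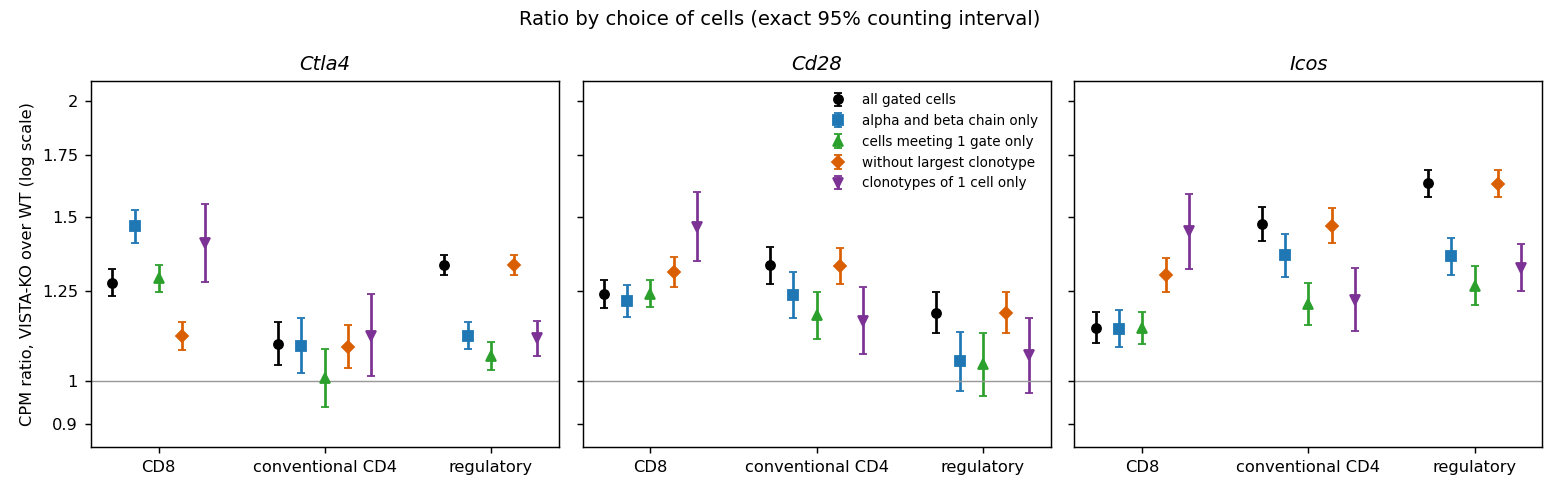
Ratio of the VISTA-KO over the WT level (y axis, log scale) of the 3 receptor genes in 3 T cell groups (x axis) for all gated cells and for 4 narrower choices of cells, with exact 95% counting intervals. Cells meeting 1 gate only exclude those with UMIs of both Cd4 and Cd8a or Cd8b1. In regulatory cells this choice takes the Ctla4 ratio from 1.33 to 1.06 and the Icos ratio from 1.63 to 1.27. In CD8 cells Ctla4 goes to 1.12 without the largest clonotype of each library.

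CD8 cells were then split by genes other than the members, into sets that may share cells. The largest Ctla4 ratio of the sets described was seen in cells with Il7r and Tcf7, genes of long-lived T cells, and no Pdcd1, the gene of PD-1 (551 and 608 cells). Ctla4 was at 54.6 and 92.5 CPM there, a ratio of 1.69 (1.40 to 2.06). These were also the cells with the lowest Ctla4 level, and the Icos ratio in them was 1.48 (1.30 to 1.68).

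Cells with Tcf7 and Pdcd1, the pair that marks precursors of exhausted cells, showed no such difference. Ctla4 was at 195 and 193 CPM in these 920 and 520 cells, a ratio of 0.992 (0.909 to 1.08), and Icos at 181 and 185 CPM, whereas Cd28 was at 200 and 248.6 CPM, a ratio of 1.24 (1.15 to 1.35). With Pdcd1 and Havcr2, which encodes TIM-3 of terminally exhausted cells, Ctla4 was at its highest, 279 and 353 CPM, a ratio of 1.27 (1.20 to 1.33). Cells with at least 2 UMIs of the division genes Mki67 and Top2a had a Ctla4 ratio of 1.23 (1.16 to 1.30), and those with at least 2 of Cx3cr1 and S1pr5, known in circulating effector cells, one of 1.08 (0.937 to 1.24). Cd28 was higher in VISTA-KO in all 5 sets, with ratios of 1.15 to 1.33, and its interval held 1 only in the set with Cx3cr1 and S1pr5. The differences between these ratios were not tested.

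**Figure D4:**
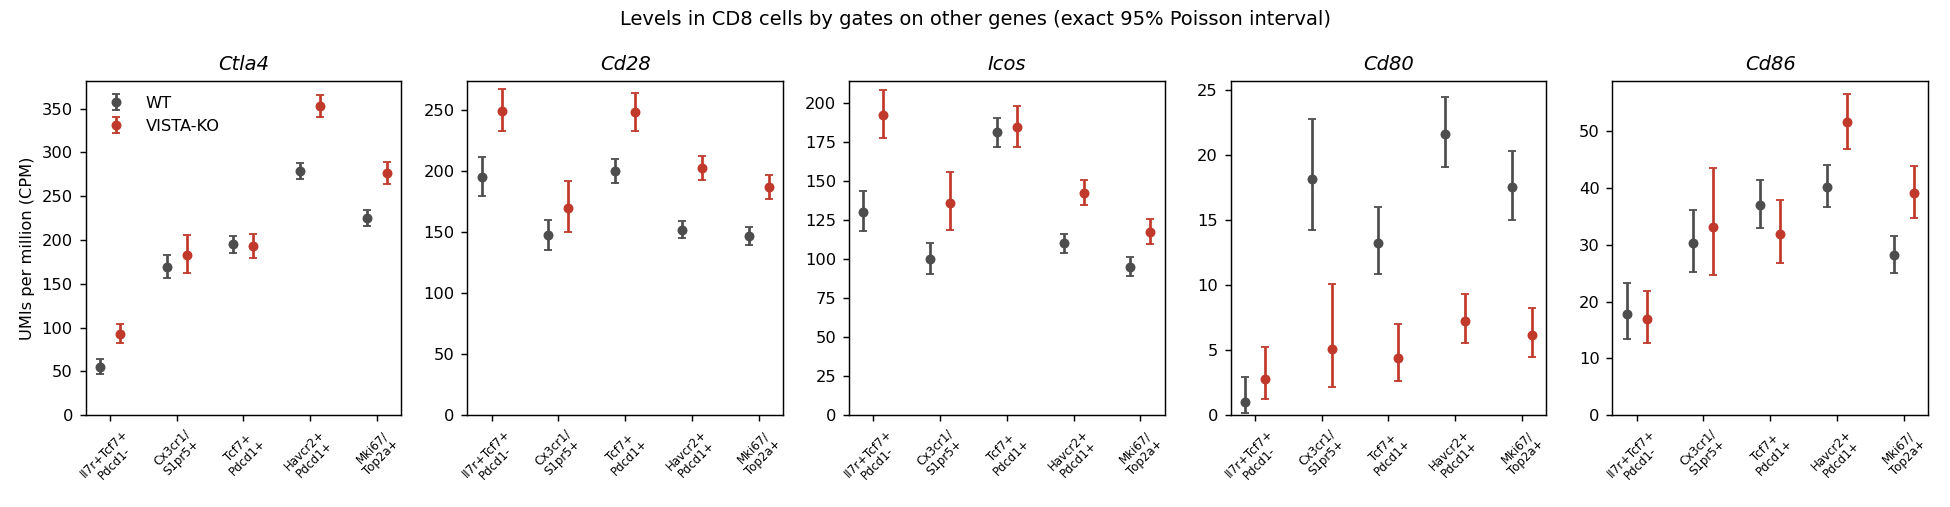
Level of each gene in CPM (y axis, from 0) in 5 sets of CD8 cells defined by other genes (x axis), WT in grey and VISTA-KO in red, with exact 95% Poisson intervals. Ctla4 differs little in the cells with Tcf7 and Pdcd1 (195 and 193 CPM) and higher in VISTA-KO in those with Havcr2 and Pdcd1 (279 and 353 CPM), and Cd80 is lower in VISTA-KO in all 4 sets that do not require the lack of Pdcd1.

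Among conventional CD4 cells, Icos was higher in VISTA-KO in each set measured. Cells with Cxcr6, a receptor of tissue-residing T cells, had 295 and 467 CPM, a ratio of 1.58 (1.51 to 1.66). In the few cells with Cxcr5 or Il21, genes of follicular helper cells (45 and 73 cells), the ratio was 1.27 with an interval that held 1 (0.964 to 1.67). The Ctla4 level was highest in those cells, at 359 and 349 CPM.

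Regulatory cells with Itgae, which encodes the integrin CD103, had Icos at 454 and 770 CPM, a ratio of 1.70 (1.62 to 1.78), and Ctla4 at 825 and 1117 CPM, a ratio of 1.35 (1.30 to 1.41). In regulatory cells with Il1rl1, the IL-33 receptor gene, and no Itgae (38 and 80 cells), the Ctla4 ratio was 1.14 (1.01 to 1.29) and the Icos ratio 1.57 (1.33 to 1.85). Both of these sets contain the cells with CD8 transcripts described above.

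Clonal structure weighed heavily on Ctla4 in CD8 cells. Cells that share both receptor chains, a clonotype, are taken to descend from the same cell, and the largest WT clonotype held 1034 CD8 cells against 291 in VISTA-KO. In the WT clonotype Ctla4 was at 61.8 CPM and Icos at 255 CPM, and in the VISTA-KO clonotype they were at 334 and 142 CPM. The ratio between these clonotypes was 5.40 (4.72 to 6.18) for Ctla4 and 0.557 (0.491 to 0.630) for Icos. They were matched by size rank only and came from different mice, so these values compare single clones and not genotypes. Without both clonotypes, CD8 cells had Ctla4 at 208 and 233 CPM, a ratio of 1.12 (1.08 to 1.16), Icos at 134 and 174 CPM, a ratio of 1.30 (1.246 to 1.35), and a Cd28 ratio of 1.31 (1.26 to 1.36). The ratios of Icos and Cd28 were then above that of Ctla4, whereas Ctla4 had the highest of the 3 over all CD8 cells.

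Over all clonotypes of at least 20 CD8 cells, 24 in WT and 12 in VISTA-KO, Ctla4 ran from 11.6 to 525 CPM with a median of 211 CPM in WT, and from 45.5 to 671 CPM with a median of 265 CPM in VISTA-KO. The ranges overlapped, whereas the lower quartiles lay at 49.97 and 220 CPM and the upper quartiles at 257 and 347 CPM. Icos ran from 50.4 to 389 CPM with a median of 107 CPM in WT and from 73.3 to 195 CPM with a median of 133 CPM in VISTA-KO. Cd28 had medians of 161 and 227 CPM, with ranges of 117 to 381 CPM and 103 to 350 CPM.

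Cells whose clonotype was seen once were taken next, which left out every clonotype seen again in the same library. Whether their clones were expanded in the tumor was not measured. In these CD8 cells (844 and 1257), the ratios were 1.41 (1.28 to 1.55) for Ctla4, 1.47 (1.35 to 1.59) for Cd28 and 1.45 (1.32 to 1.59) for Icos. In clonotypes of 2 to 9 cells, Ctla4 and Icos had ratios of 1.04 (0.953 to 1.13) and 0.997 (0.907 to 1.10), and in those of 10 to 99 cells 1.32 (1.23 to 1.42) and 1.42 (1.28 to 1.57). The ratio therefore did not follow clone size in 1 direction. Regulatory cells with a clonotype seen once (406 and 686) had ratios of 1.11 (1.06 to 1.16) for Ctla4 and 1.32 for Icos, and conventional CD4 cells with one (543 and 1152) had 1.12 (1.01 to 1.24) and 1.22 (1.13 to 1.32). In conventional CD4 clonotypes of 2 to 9 cells the Ctla4 ratio was 0.877 (0.773 to 0.996), and in regulatory ones 1.05 (0.984 to 1.12). Conventional CD4 clonotypes of 10 to 99 cells had Icos at 253 and 520 CPM, a ratio of 2.06 (1.81 to 2.35).

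**Figure D5:**
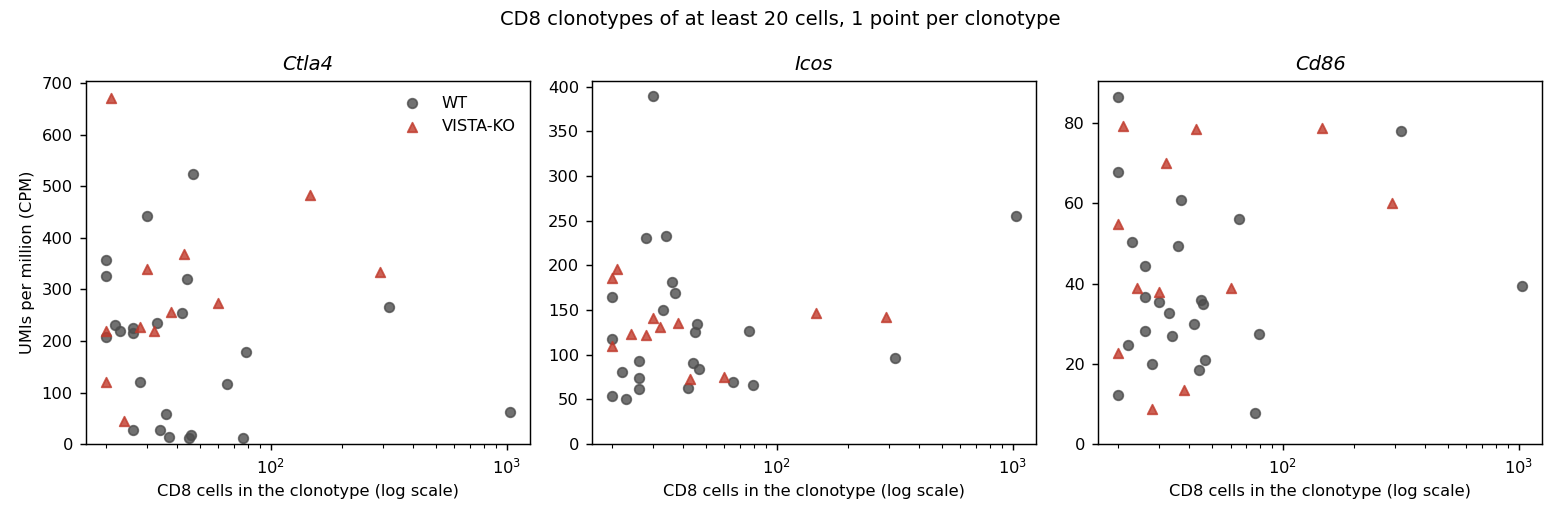
Level of Ctla4, Icos and Cd86 in CPM (y axis, from 0) against the number of CD8 cells in the clonotype (x axis, log scale), 1 point for each clonotype of at least 20 cells, WT as grey circles and VISTA-KO as red triangles. The largest WT clonotype of 1034 cells lies at 61.8 CPM of Ctla4 and 255 CPM of Icos, and the Ctla4 ranges of both genotypes overlap, with 6 WT clonotypes below 45.5 CPM, the lowest of VISTA-KO.

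Cd80 was sparse, and over all gated cells its ratios lay on opposite sides of 1 in CD8 and regulatory cells. CD8 cells had 424 and 147 UMIs of Cd80, or 11.3 CPM (10.3 to 12.5) against 5.17 CPM (4.37 to 6.08), which gave a ratio of 0.457 (0.376 to 0.552). Regulatory cells had 17.0 CPM (15.2 to 19.0) and 22.2 CPM (19.4 to 25.4), a ratio of 1.31 (1.09 to 1.56). Conventional CD4 cells had 8.27 and 4.74 CPM, a ratio of 0.573 (0.416 to 0.787). The regulatory cells, which hold 33.0% and 43.9% of all Cd80 UMIs, thus had the highest level of the 3 T cell groups, and in WT their interval overlapped that of C1q cells (14.1 CPM, 9.45 to 20.3).

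Cd80 was lower in VISTA-KO in 4 of the 5 sets of CD8 cells. The ratio was 0.335 (0.250 to 0.444) with Havcr2 and Pdcd1, where the levels were 21.6 and 7.25 CPM, 0.334 (0.191 to 0.554) with Tcf7 and Pdcd1, 0.351 (0.246 to 0.490) in dividing cells, and 0.281 (0.117 to 0.584) in the cells with Cx3cr1 and S1pr5, where the levels were 18.1 and 5.10 CPM. The last 2 of these sets are not defined by Pdcd1. In the set without Pdcd1 only 3 and 9 UMIs were counted. In cells of clonotypes seen once, Cd80 had 13 and 23 UMIs and a ratio of 1.15 (0.561 to 2.48). Of the clonotypes of at least 20 CD8 cells, those of WT reached 45.7 CPM and those of VISTA-KO 10.7 CPM, with medians of 8.33 and 3.92 CPM.

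Some transcripts of antigen-presenting cells were higher in CD8 cells with Cd80 than in those without, and others differed between the libraries. After thinning, 1.24% (0.955 to 1.57) and 0.889% (0.626 to 1.22) of CD8 cells held a Cd80 UMI (65 and 37 cells), with overlapping intervals. In those cells the MHC class II gene H2-Aa was at 810 and 1433 CPM against 168 and 65.8 CPM in the other CD8 cells, and Fscn1, a gene of mature dendritic cells, at 106 and 447 CPM against 26.0 and 3.69 CPM. The list of conventional dendritic cells summed to 246 and 722 CPM against 85.9 and 53.6 CPM. The macrophage list was lower with Cd80 in WT (61.9 against 161 CPM) and higher in VISTA-KO (1480 against 149 CPM). Lyz2 of myeloid cells went the same way, at 8.84 against 54.4 CPM in WT and 878 against 34.7 CPM in VISTA-KO. The T cell list summed to 6094 and 5313 CPM in the cells with Cd80, and 75.4% and 59.5% of them held both receptor chains. A narrower set of 2791 and 2211 CD8 cells had 1 beta chain and at least 1 alpha chain. It held no UMI of the macrophage, dendritic, B cell and melanoma markers or Siglech. Cd80 was at 9.96 and 4.40 CPM in this set, a ratio of 0.441 (0.320 to 0.602). Over all CD8 cells the ratio was 0.457. MHC class II genes were not among the markers left out, and the part of RNA from other cells in these ratios was not tested. In the regulatory cells chosen the same way (406 and 484), Cd80 was at 17.2 and 25.2 CPM, with an interval that held 1 (0.983 to 2.20).

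Cd86 was carried mostly by CD8 cells, which held 62.1% and 63.1% of its UMIs while making up 53.0% and 42.8% of all cells. There WT had 36.7 CPM (34.8 to 38.7) against 43.2 CPM (40.8 to 45.7) for VISTA-KO, which gave a ratio of 1.18 (1.09 to 1.27), and the thinned shares were 7.04% and 7.54%, with overlapping intervals. Regulatory cells had 20.2 and 25.4 CPM, a ratio of 1.26 (1.07 to 1.48), and conventional CD4 cells 24.3 and 20.6 CPM, a ratio of 0.851 (0.721 to 1.00). The Siglech cells without a chain or Cd3 UMI had 10 and 11 UMIs, or 9.70 (4.65 to 17.8) and 12.8 CPM (6.41 to 23.0), so that CD8 cells exceeded this level in both libraries.

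CD8 cells with a Cd86 UMI held T cell transcripts, beside some of other cells. In the 370 and 314 such cells the T cell list summed to 6777 and 6858 CPM against 6271 and 6253 CPM in the cells without, and 77.8% and 81.8% held both receptor chains against 75.7% and 80.6%. H2-Aa was at 290 and 76.6 CPM in them against 170 and 78.5 CPM, and Fscn1, a gene of mature dendritic cells, at 86.9 and 31.4 CPM against 23.0 and 5.84 CPM. Lyz2 of myeloid cells was at 15.2 and 216 CPM against 56.4 and 28.4 CPM. The macrophage list summed to 131 and 370 CPM against 161 and 144 CPM, and the list of conventional dendritic cells to 187 and 91.9 CPM against 81.4 and 57.1 CPM. The part of these transcripts in the Cd86 values was not tested. Cells with 1 beta chain, at least 1 alpha chain and none of the other markers were also taken. The Cd86 ratio in them was 1.20 (1.06 to 1.35) in CD8 cells and 1.96 (1.29 to 3.05) in regulatory cells, the latter from 34 and 70 UMIs. Cd86 was at 40.2 and 51.6 CPM with Havcr2 and Pdcd1 and at 17.9 and 16.9 CPM with Il7r and Tcf7 and no Pdcd1, so that both genotypes had more of it in the Pdcd1 cells. In CD8 cells of clonotypes seen once it was at 18.7 and 33.2 CPM, a ratio of 1.78 (1.39 to 2.29).

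In Siglech and C1q cells some receptor levels were lower in VISTA-KO. Of the 3 members compared in Siglech cells, Ctla4 (139 and 81.1 CPM, ratio 0.583, 0.469 to 0.721) and Cd28 (74.2 and 38.4 CPM, ratio 0.518, 0.377 to 0.703) were called lower, beside 10.4% of 6405 genes higher and 12.1% lower. Of the 4 compared in C1q cells, Ctla4 (362 and 221 CPM, ratio 0.611, 0.512 to 0.726) was called lower, beside 18% of 6486 genes higher and 18.5% lower. Shares of cells did not show this difference. Thinned to 2000 UMIs, 31.7% (23.5 to 40.8) and 36.5% (25.6 to 48.5) of C1q cells held a Ctla4 UMI. Unthinned it was 66.9% and 64.9%, at medians of 13693.5 and 7592.5 UMIs. In Siglech cells the thinned shares were 10.5% and 8.76%, with overlapping intervals. Icos was not called in either group, with ratios of 0.841 (0.657 to 1.07) and 0.844 (0.680 to 1.04), nor was Cd28 in C1q cells (0.932, 0.755 to 1.14). T cell RNA was also lower in these cells, with the summed T cell list at 1794 and 920 CPM in Siglech cells and 5619 and 4638 CPM in C1q cells, and its part in these ratios was not tested. Foxp3 went the same way, at 84.0 and 35.0 CPM in Siglech cells and 120 and 55.6 CPM in C1q cells. Cd86 in Siglech cells came from 38 and 16 UMIs with a ratio of 0.754 (0.392 to 1.38), and in C1q cells it was at 41.9 and 50.0 CPM with a ratio of 1.20 (0.787 to 1.78), so that neither showed a difference at this depth. Cd80 had 7 UMIs in WT Siglech cells and 0 in VISTA-KO, where a count of 0 allows up to 2.097 CPM by a limit of 3 UMIs and 2.58 CPM by the exact interval, and 29 and 6 UMIs in C1q cells.

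Within cells Ctla4 and Icos went together. At 2000 UMIs per cell, Icos was found in 33.4% of WT CD8 cells with a Ctla4 UMI and 22.9% of those without, and in 32.9% and 23.7% in VISTA-KO. In regulatory cells the shares were 61.2% and 42.9% in WT and 70.0% and 57.1% in VISTA-KO, and in conventional CD4 cells 51.6% and 37.6%, and 56.4% and 46.5%. Cells with Ctla4 held Icos more often in each of these 6 pairs, with no overlap of the intervals. For Cd28 the shares with and without Ctla4 overlapped in their intervals in 4 of the 6 pairs, such as 51.1% and 49.1% in conventional CD4 cells of VISTA-KO, and lay apart in WT regulatory cells (38.8% and 30.8%) and VISTA-KO CD8 cells (40.7% and 35.1%). Cd80 was found in 2.26% (1.45 to 3.34) of WT CD8 cells with Ctla4 and 0.977% (0.702 to 1.32) of those without, and in 0.897% (0.431 to 1.64) and 0.886% (0.584 to 1.29) in VISTA-KO, and this difference between libraries was not tested. Thinning evens out depth but not the mixture of states in a group.

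Across the 10 values given by 5 groups in 2 libraries, the genes whose log2 levels were most like those of each member were looked up among 7584 genes, as a description over points that share libraries and cells. Nearest to Ctla4 were Glrx (r = 0.99), Dusp4 (0.98) and Ap2a1 (0.98), a subunit of the adaptor that takes CTLA-4 into the cell. Nearest to Icos were Nfkbia (0.99), Cpm (0.98) and Retreg1 (0.98), and nearest to Cd28 were Tpt1, 4930523C07Rik and Flt3l (all 0.99). Cd80 was closest to Ubash3b (0.97), Ube2n (0.96) and Pglyrp1 (0.96), and Cd86 to Gar1, Hspd1 and Crtam (all 0.95). Ctla4 correlated with Cd80 at 0.90 and with Icos at 0.84, but with Cd86 at only 0.26.

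Genes around the receptors were followed in 5 lists. Of the CD28 and B7 families, 8 of 13 genes reached 20 CPM in CD8 cells, and 2 were called higher and 0 lower, Ctla4 and Cd274. Over all genes 2.58% were called higher and 1.64% lower. The list holds all 5 members, so its counts and medians in part restate their values. In the 3 T cell groups Cd274 was the only gene of the list called higher that is not a member. Cd274, which encodes the PD-1 ligand PD-L1, was at 41.3 and 56.1 CPM, a ratio of 1.36 (1.26 to 1.46), and its ratios were 1.43 in conventional CD4 and 1.89 in regulatory cells. The median log2 ratio of the list was 0.20, beside -0.02 over all genes. Icosl, the ligand of ICOS, stayed under 20 CPM in all 5 groups.

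In CD8 cells, where 2.58% of all genes were called higher and 1.64% lower, none of the 21 measured genes for signaling of CD28 and ICOS and none of the 13 for trafficking and binding of CTLA-4 was called, with medians of -0.03 and -0.04. Of 9 CD28 target genes, 1 was called higher and 1 lower. Irf4, a transcription factor that T cell receptor signaling induces, was at 16.3 and 32.6 CPM, so that it entered through VISTA-KO alone, with a ratio of 2.00 (1.81 to 2.22), and its ratios were 1.77 in conventional CD4 and 1.51 in regulatory cells. Tnfrsf4, which encodes the costimulatory receptor OX40, was at 136 and 72.9 CPM, a ratio of 0.534 (0.507 to 0.562). The 1 measured gene of the list linked to ICOS was not called.

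In CD4+ cells the genes below were named after their values were seen. In regulatory cells, where 6.45% of all genes were called higher and 5.64% lower, the families gave 3 of 9 genes higher (Ctla4, Icos and Cd274) and 1 lower, Pdcd1, at 368 and 215 CPM. Signaling gave 2 of 20 higher (Rel and Rasgrp1), trafficking 1 of 13 (Trat1), and the list linked to ICOS 1 of 2, the cytokine gene Il10, at 14.7 and 26.1 CPM. The shares for signaling and trafficking lie near that of all genes. Il10 reached 20 CPM in VISTA-KO alone, and a gene that enters in this way can hardly be called lower. Of 10 CD28 targets, 3 were higher (Il2ra, Irf4 and Cd40lg) and 1 lower, the chemokine gene Ccl3, at 159 and 69.3 CPM. Ccl3 and Pdcd1 are also transcribed by activated CD8 cells, whose Cd8a and Cd8b1 transcripts summed to 857 and 389 CPM in this group, and their part in these 2 values was not tested.

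In conventional CD4 cells, where 3.68% of all genes were called higher and 5.63% lower, the families gave 3 of 9 higher (Cd28, Icos and Cd274) and 1 lower, Pdcd1, at 397 and 268 CPM. Signaling gave 2 of 22 higher, again Rel and Rasgrp1, and Malt1 lower, trafficking 0 of 13 in either direction, and the list linked to ICOS the transcription factor gene Maf, at 75.5 and 97.8 CPM. Of 11 CD28 targets, 3 were higher (Il2ra, Irf4 and Cd40lg) and 3 lower (Tnfrsf9, Myc and Ccl3). Summed Cd8a and Cd8b1 were at 897 and 457 CPM in this group, and plasmacytoid dendritic transcripts at 2070 and 1091 CPM. The part of RNA from other cells in the values of the called genes was not tested. Cd40lg, whose product stimulates antigen-presenting cells, was at 125 and 199 CPM. Il2ra (17.8 and 25.4 CPM) and Irf4 (19.9 and 35.2 CPM) reached 20 CPM in VISTA-KO alone.

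Vsir itself had similar counts in both libraries. It was at 112 and 111 CPM in CD8 cells, a ratio of 0.990 (0.945 to 1.04), and had ratios of 1.08 (1.00 to 1.16) in conventional CD4 and 1.05 (0.971 to 1.12) in regulatory cells. Counts per gene do not show which exons the molecules came from, so Vsir does not check the genotype labels here.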

How the data were processed

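The authors aligned gene expression and receptor reads with Cell Ranger (5.0.0 in the methods) to GRCm38 (mm10) and deposited unnormalized UMI counts for each gene in each called barcode, and receptor contigs with a count of UMIs each. Per the labels the kit was a 3′ kit with surface-protein barcodes, whereas sample descriptions name 5′ libraries. The paper's methods name a Chromium V(D)J kit. Strand, multi-mapping rules and the deleted exons were not given in the sources used here. Cells with at least 600 genes and under 30% mitochondrial UMIs were kept. UMIs were summed per group and library and scaled to CPM, with exact 95% Poisson, binomial and conditional ratio intervals, a pseudocount of 5 CPM for log2 ratios, a minimum of 20 CPM, and thinning to 2000 UMIs for shares (643 WT and 538 VISTA-KO cells were shallower and left out). No test was run, and edgeR 4.0.16 (R 4.3.3) gave TMM factors only. Cells with the same V genes and CDR3 nucleotides in their top alpha and beta chains formed a clonotype. No doublet caller was run. Cells with 2 or more beta chains (405 and 558) were left out as an alternative. Cells in several gates or with UMIs of both Cd4 and Cd8a or Cd8b1 were left out as another. Python 3.11.15, numpy 2.4.6, scipy 1.17.1, pandas 2.3.3 and matplotlib 3.10.9 were used, and the ratio script was tested on simulated counts.

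The members and gene lists were chosen with earlier results of these data known. Named genes were the members, Vsir, list genes called in CD8 cells, and for each member the 3 genes with the highest correlation over the 10 group values, leaving out gate genes and members. Some cell sets and marker genes are not reported here.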

Additional observations from a re-analysis of the deposited data

Results flagged for a closer look

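Ctla4 had ratios of VISTA-KO over WT of 0.583 in Siglech cells and 0.611 in C1q cells, and Cd28 had a ratio of 0.518 in Siglech cells, opposite to the ratios above 1 in CD8, conventional CD4 and regulatory cells. Cd80 had a ratio of 1.31 in regulatory cells, opposite to CD8 and conventional CD4 cells. The Cd80 interval held 1 in regulatory cells with CD8 transcripts, in those without them, and in those with both receptor chains. These differences between groups were not tested, since each genotype is 1 library. The thinned shares of cells with Ctla4 had overlapping intervals between genotypes in Siglech cells and in C1q cells. Siglech cells without any receptor chain (179 and 111) held 221 and 15 Ctla4 UMIs, or 115 and 14.1 CPM, and C1q cells without one (76 and 20) were at 391 and 108 CPM of Ctla4.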

How the results depend on the processing

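All values here are log2 ratios of CPM plus 5 unless said otherwise. Of 122 alternative values for the 12 planned ratios, 121 kept the sign, the exception being Cd28 in regulatory cells that met 1 gate only and held both receptor chains (-0.034, main 0.24). Values past the counting interval of the main one follow. With both receptor chains required, Ctla4 was 0.54 in CD8 (main 0.34) and 0.16 in regulatory cells (main 0.41), Cd28 0.30 in conventional CD4 (main 0.41) and 0.069 in regulatory cells, and Icos 0.44 in conventional CD4 (main 0.55) and 0.44 in regulatory cells (main 0.70). In cells meeting 1 gate only, Ctla4 was 0.010 in conventional CD4 (main 0.13) and 0.089 in regulatory cells, Cd28 0.23 and 0.058, and Icos 0.27 and 0.34, and with receptor chains required as well, an alternative added after seeing the data, Ctla4 was 0.13 and Icos 0.35 in regulatory cells. Stricter gates gave Ctla4 0.0049 in conventional CD4 and 0.37 in regulatory cells, and leaving out cells with 2 or more beta chains gave 0.47 in regulatory cells. Without the largest clonotype of each library, Ctla4 was 0.16, Cd28 0.38 (main 0.30) and Icos 0.37 (main 0.19) in CD8 cells, and Ctla4 was 0.20 without that of WT alone, also added later. In clonotypes of 1 cell, Ctla4 was 0.48 in CD8 and 0.15 in regulatory cells, Cd28 0.54, 0.21 and 0.091, and Icos 0.52, 0.29 and 0.40 in CD8, conventional CD4 and regulatory cells. With TMM scaling, conventional CD4 cells had Ctla4 0.21, Cd28 0.49 and Icos 0.63. Thinned to 2000 UMIs, Ctla4 was 0.49, 0.018 and 0.26 in CD8, conventional CD4 and regulatory cells, Cd28 0.11 in regulatory cells, and Icos 0.13, 0.38 and 0.52. The CD8 cells with both receptor chains include the largest clonotype of each library. The cause of these shifts was not tested.

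For the ligands, Cd86 in Siglech and C1q cells and Cd80 in regulatory cells stayed within their intervals in every alternative that gave a value. The Cd80 ratio in regulatory cells with both receptor chains was 1.16, with an interval that held 1 (0.908 to 1.48). Cd86 in Siglech cells had no value with 1 gate only (10 and 14 cells with 0 and 1 UMIs). Alternatives added after seeing the data moved Cd80 in CD8 cells (main -0.68) to 0.076 in clonotypes of 1 cell, which reversed it on 13 and 23 UMIs, to -0.998 with a pseudocount of 1 CPM and to -0.36 when thinned, and Cd86 in CD8 cells (main 0.21) to 0.69 in clonotypes of 1 cell. Without a minimum CPM, the genes called went from 257 to 560 in CD8, 590 to 1334 in conventional CD4 and 759 to 1507 in regulatory cells. TMM scaling turned the conventional CD4 split from 233 higher and 357 lower to 364 and 244. In 17 of 25 pairs of gene and group the share thinned to 2000 UMIs was higher in VISTA-KO. This count takes in differences with overlapping intervals, and no such count was made over all genes. Thinned to 4000 UMIs, fewer pairs were higher in VISTA-KO. Ctla4 in C1q cells turned lower (52.2% and 48.4%), whereas Cd28 in C1q cells turned higher (52.2% and 62.5%). No paired analysis was possible because each genotype has 1 library. Depth limits Cd80 and Cd86, and all values of Siglech and C1q cells.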
